A study of Mus musculus with 412 samples.

Results

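The clustered protocadherins were followed in single sensory neurons of the mouse colon. They were taken as every row of the deposited expression table whose Ensembl identifier carries a Pcdha, Pcdhac, Pcdhb, Pcdhga, Pcdhgb or Pcdhgc symbol, which gave 58 of the 45513 genes listed. The set held 14 genes of the alpha cluster, 22 of the beta cluster and 22 of the gamma cluster, and of these 53 were alternate genes and 5 were C-type genes (Pcdhac1, Pcdhac2, Pcdhgc3, Pcdhgc4 and Pcdhgc5). Neurons were traced from the colon wall of healthy C57BL/6J mice by Fast Blue, a dye that is carried back to the cell body, and ganglia were dissected 3 to 10 days later. Thoracolumbar (TL, T10 to L1) and lumbosacral (LS, L5 to S2) dorsal root ganglia were dissociated into 2 separate cultures, from which Fast Blue-positive neurons were picked by hand with a pipette and sequenced 1 by 1. The table holds 167 TL and 158 LS neurons from 6 library plates. No mouse or culture is named for a neuron, so TL and LS were each 1 sample, no test was made between them, and all differences given here are descriptions of these libraries.

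Clustered protocadherins are adhesion proteins of the neuronal surface that bind only to matching copies of themselves on another membrane. Each alternate gene has its own promoter and first exon, and a neuron turns on a small subset of them, apparently by chance and separately on each parental chromosome, which gives the cell a surface identity used for self-avoidance of its own branches. The C-type genes lie at the far end of the alpha and gamma clusters and are switched on by cell type rather than by this lottery. In the alpha and gamma clusters the first exon is spliced to constant exons shared by the whole cluster, whereas most beta genes are a single exon.

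All 58 genes lie on the plus strand of chromosome 18 (GRCm38), with the alpha cluster at chr18:36930184-37187661, the beta cluster at chr18:37264938-37524479 and the gamma cluster at chr18:37661793-37841873. Values were taken off the log2 scale and rescaled to the same sum of 1000000 in each neuron (ppm, parts in 1000000), a level per exonic length, and a gene was called seen in a neuron at 10 or more ppm. The recovered reads numbered 478299 to 14102494 per neuron, with a median of 3387793, so that 10 ppm stood for 31.5 to 106 reads of a member in a median neuron. The alpha and gamma lengths behind the values include the constant exons. How reads in those exons were assigned is not given in the sources used here, so levels of alpha and gamma genes may not be comparable with those of beta genes. Where this matters, the level per length of exon that no other annotated gene shares is given beside it. That level divides all reads assigned to the gene by its unshared length, without rescaling again. Any reads assigned to it from shared exons therefore stay in it. Alternate genes are similar in sequence, so reads may be split between neighbours, above all in the beta cluster. A pair of entries carries the symbol Pcdha11 and is told apart by identifier, and all exons of Pcdhga10 are shared with another gene.

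The picked cells matched their label by neuronal genes. The neuronal genes Tubb3, Uchl1, Snap25 and Prph were each seen in 100% of the 325 neurons, and Avil, a marker of sensory neurons, in 85.8%. Summed levels of 10 satellite glia markers had a median of 2393 ppm in TL and 360 in LS, with all 10 markers seen in some neurons, and their part in the results below was not tested unless values without these neurons are given. The sum of 5 Schwann cell markers had a median of 753 ppm (TL 1062, LS 467). Median sums were 33.9 for 8 macrophage markers, of which C1qb was seen in 60.3% and Cd68 in 11.1% of neurons and C1qa and C1qc in none, 12.4 for fibroblast markers and 0 for endothelial markers, which summed to 23379 in 1 TL neuron. In all, 39 neurons had fewer than 9000 genes above 0, and these had a mean of 2.05 clustered protocadherins seen against 4.08 in the others.

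Among the C-type genes, Pcdhac2 was the member seen most widely. It was seen in 271 of 325 neurons, 83.4% (exact 95% interval 78.9 to 87.3, counting error only), with a lowest level of 0, a median of 40.2 and a highest of 147 ppm. Pcdhac1 was seen in 102 neurons, 31.4% (26.4 to 36.7), with a median of 5.28 and a highest level of 76.6 ppm. Both are the last genes of the alpha cluster, and they were seen together in 97 neurons where the product of their shares gave 85.1. The 3 gamma C-type genes were low. Pcdhgc3 was above 0 in 78.5% of neurons but reached 10 ppm in 13, 4.00% (2.15 to 6.74), and its highest level was 18.3 ppm. Pcdhgc4, which some classes of neurons need for their survival, reached the threshold in 2 neurons. Pcdhgc5 reached it in 0 of 325 neurons, which allows a share of up to 0.923%, and its highest level was 9.36 ppm. Per length of unshared exon, Pcdhgc3 was seen in 29.8% of neurons, Pcdhac1 in 52.0% and Pcdhac2 in 87.7%, so the order of these 3 genes was the same on both scales while the size of the gap was not.

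Alternate genes were each seen in few neurons. Their median share was 3.38% of neurons, none of the 53 passed 21.2%, and 6 were never seen. Of the 17225 values of alternate genes, 74.3% were 0 and 4.99% reached 10 ppm, and these last values held 67.7% of their summed level. In the alpha cluster, Pcdha12 was seen in 45 neurons (13.8%), Pcdha3 in 44 (13.5%) and Pcdha9 in 44 (13.5%), shares whose intervals overlap almost wholly. Their levels ran from 0 in 215, 244 and 228 neurons to highest values of 44.2, 71.7 and 54.4 ppm. Pcdha4 and the Pcdha11 entry ENSMUSG00000102206 were seen in 0 of 325 neurons. Both have little unshared exon, 404 and 1268 bases, and per that length they were seen in 17.2% and 6.77% of neurons. Their absence at the threshold was thus not kept on that scale. These shares rest on all reads assigned to the gene, which may include reads of shared exons.

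**Figure D1:**
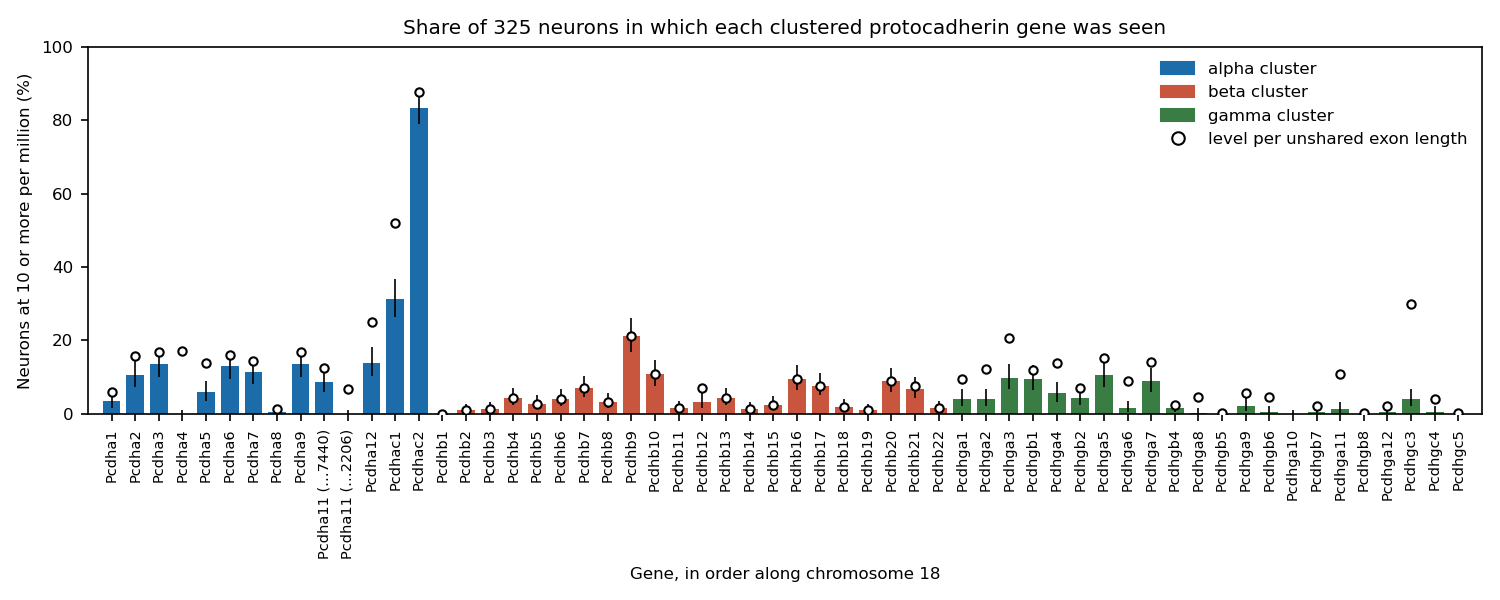
Share of the 325 neurons (%) in which each of the 58 genes reached 10 or more ppm, in genomic order. Bars are coloured by cluster, lines are exact 95% intervals for counting error, and open circles give the share when the level is taken per length of unshared exon. Pcdhac2 stands at 83.4%, Pcdhac1 at 31.4%, and every alternate gene at 21.2% or lower by the bars.

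In the beta cluster, Pcdhb9 was seen in 69 neurons or 21.2% (16.9 to 26.1), the highest share of the 53 alternate genes at the deposited lengths. Per length of unshared exon, Pcdha12 stood above it, at 81 neurons or 24.9%. Pcdhb9 was at 0 in 224 neurons and reached 123 ppm, the highest level of any alternate gene named here. Pcdhb10 followed with 35 neurons (10.8%) and a highest level of 77.9 ppm, and Pcdhb16 with 31 neurons (9.54%) and a highest level of 36.2. The interval of Pcdhb10 was 7.62 to 14.7, and both intervals cover counting error only. At the other end Pcdhb1, the first gene of the cluster, was seen in 0 neurons and was above 0 in 1.54%. Pcdhb2 and Pcdhb19 were each seen in 0.923%.

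In the gamma cluster the genes seen most often were Pcdhga5 in 34 neurons (10.5%), Pcdhga3 in 32 (9.85%) and Pcdhgb1 in 31 (9.54%). They reached 59.9, 41.3 and 53.7 ppm in their highest neurons. Pcdhgb5, Pcdhga10 and Pcdhgb8 were seen in none, and Pcdhgb8 is annotated as a polymorphic pseudogene. All exons of Pcdhga10 are shared with another gene, so its absence could not be checked per length of unshared exon. Place in the cluster went with use here. The first 10 alternate gamma genes, Pcdhga1 to Pcdhgb4, gave 194 of the 212 cases in which an alternate gamma gene was seen in a neuron (91.5%), and the last 9, Pcdhga8 to Pcdhga12, gave 18. Shares ran from 1.54% to 10.5% among the former and from 0 to 2.15% among the latter. The excess was there in each of plates 2 to 6 (81.8% to 94.7% of cases), in TL (89.7%) and in LS (93.7%). It was smaller per length of unshared exon, at 79.2%, where Pcdhga10 of the last 9 could not be counted. It was small when any value above 0 was counted, at 57.0%. Values above 0 made up 31.4% of those of the first 10 genes and 26.4% of those of the last 9. Whether these low values are reads of the genes themselves or of similar or shared exons was not tested. The alpha cluster showed no such tilt, with 150 cases in its first 6 alternate genes and 156 in its last 6. The beta cluster split into 185 and 157 cases, and its plates lay on both sides of an even split (44.1% to 63.2% in the first 11 genes).

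Counted by neuron, 3.84 ± 1.96 (SD, n = 325 neurons) of the 58 genes were seen, with a median of 4 and a range of 0 to 12. In 16 neurons none was seen, which is 4.92% (2.84 to 7.87). The mean was made up of 0.942 alternate alpha, 1.05 beta, 0.652 alternate gamma and 1.19 C-type genes. Per length of unshared exon, the clusters stood in another order, with 1.62 alternate alpha, 1.10 beta and 1.46 alternate gamma genes. Pcdhga10, which has no unshared exon, could not be counted on that scale. The mean of all 58 lay between 3.37 and 4.21 in plates 2 to 6. The number seen of all 58 rose only weakly with depth across neurons (Spearman's rho 0.155 with reads and 0.270 with genes above 0, n = 325, points that share libraries). The neuron with the most genes, a TL neuron, held Pcdha9, Pcdha12 and Pcdhac2, 5 beta genes (Pcdhb8, Pcdhb9, Pcdhb10, Pcdhb11 and Pcdhb21) and 4 gamma genes (Pcdhga2, Pcdhga3, Pcdhgb1 and Pcdhga6), at 10.6 to 54.4 ppm. In 96 neurons (29.5%) all 3 clusters had an alternate gene seen, and in 33 (10.2%) none had.

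The alternate alpha genes were counted out more evenly than the other clusters. No alternate alpha gene was seen in 108 neurons, 1 in 130, 2 in 85 and 3 in 2, and no neuron had more. The variance of this number was 0.617, where the shares of the 12 genes would give 0.833 if genes were seen independently of each other, a ratio of 0.741. It was 0.860 in TL and 0.628 in LS. For beta genes the ratio was 0.939, with up to 5 genes in a neuron, and for alternate gamma genes it was 0.988, with up to 4. Where an alternate alpha gene was seen (217 neurons), the leading gene gave a median of 66.3% of the summed alternate alpha level, and the leading 2 gave 97.7%. The leading 2 beta genes gave 83.4% and the leading 2 gamma genes 79.3%. The upper end depends on scale, because per length of unshared exon 36 neurons had 3 alternate alpha genes and 3 had 4, although the variance ratio was then lower still, at 0.549. Counting any value above 0 turned the ratio to 1.37.

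**Figure D2:**
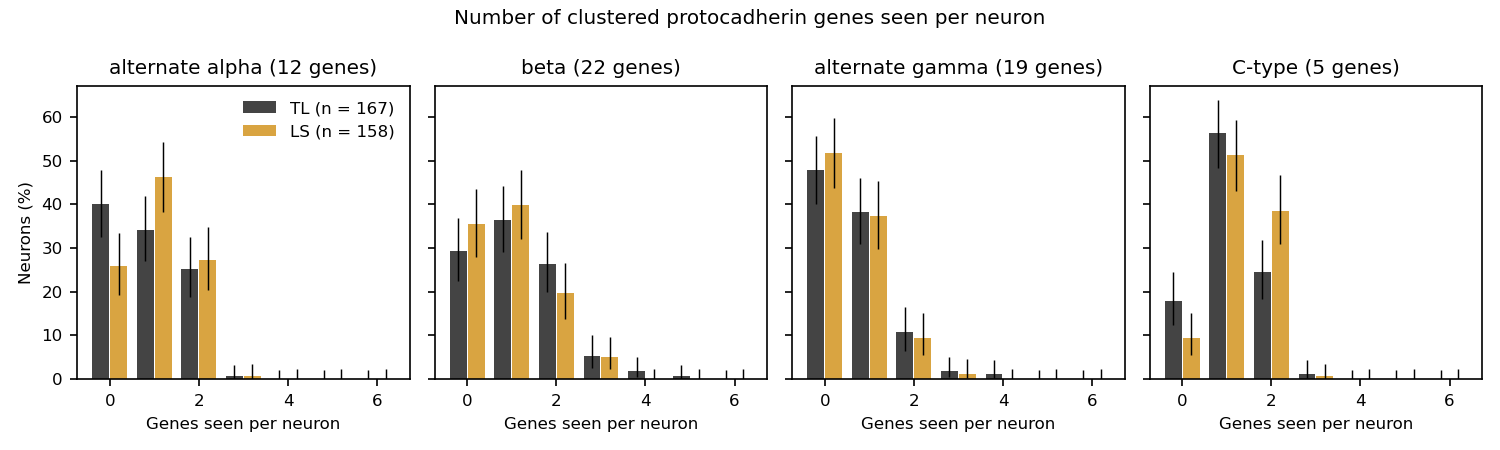
Share of neurons (%) by the number of genes seen per neuron, for the alternate alpha, beta, alternate gamma and C-type genes. Dark bars are 167 TL and yellow bars 158 LS neurons, with exact 95% intervals for counting error. Alternate alpha genes stop at 3, and 40.1% of TL against 25.9% of LS neurons have none.

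Most neurons had a set of their own. Sets of genes that are each seen in few neurons often differ by sparsity alone. No number expected from the shares is given here for these sets or for the overlap between neurons. The 292 neurons with at least 1 alternate gene seen had 247 different sets, and 226 of these sets belonged to 1 neuron each. Of the 237 neurons with at least 2 alternate genes, 213 had a set of their own. The most common set was Pcdhb9 alone, in 11 neurons, 4 TL and 7 LS, on 5 plates. The most common sets of 2 genes were Pcdha12 with Pcdhb9 and Pcdhb10 with Pcdhb20, in 3 neurons each. Between 2 neurons the mean Jaccard index (genes seen in both over genes seen in either) was 0.0488, and 77.9% of pairs of neurons shared no alternate gene. It was 0.0444 within TL, 0.0545 within LS and 0.0485 between the segments, so the value between segments lay between those within them. Pairs from the same plate and segment had 0.0517 and pairs from the same segment on different plates 0.0486.

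Pairs of genes were then compared with the number of neurons that the product of their shares gives. For alternate genes of the same cluster, co-detection summed over all 468 pairs was 305 against 352 expected, a ratio of 0.867. For alternate genes of different clusters it was 890 against 745, a ratio of 1.20. Expected numbers taken within plate and segment gave 0.860 and 1.18. The summed ratio was lowest in the alpha cluster. Within alpha the ratio was 0.720 (91 against 126), within beta 0.940 and within gamma 0.976, and the pairs with at least 1 neuron expected that lay under 1 were 24 of 34 in alpha, 30 of 45 in beta and 15 of 22 in gamma. The median ratio over those pairs was lowest in gamma, at 0.641, against 0.776 in alpha and 0.807 in beta. Small whole-number counts can fall under their expected value more often than over it even for independent genes. Nothing is therefore read from these counts of pairs and medians. Between clusters the ratios were 1.12 for alpha with beta, 1.24 for alpha with gamma and 1.26 for beta with gamma. Over plates 2 to 6 the ratio was 0.668 to 1.04 within clusters, 0.644 to 0.841 within alpha and 1.10 to 1.25 between clusters. The deficit depended on the threshold: with a gene seen at 1 or more ppm the ratio was 1.15 within clusters and 0.899 within alpha, and with any value above 0 it was 1.25 and 1.10. The neurons differ in how many genes they show, and the part of this in the excess between clusters was not tested.

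Among pairs with at least 5 neurons expected, the 4 lowest were all within the alpha cluster. Of alternate pairs within a cluster, 9 alpha, 4 beta and 0 gamma pairs reached that number. Pcdha7 with Pcdha12 was seen in 1 neuron against 5.12 expected, Pcdha7 with Pcdha9 in 1 against 5.01, Pcdha9 with Pcdha12 in 2 against 6.09 and Pcdha6 with Pcdha12 in 2 against 5.82. The highest was Pcdhb9 with Pcdhga3, in 14 neurons against 6.79 expected, a ratio of 2.06, of which 11 were TL and 3 LS. Pcdha2 with Pcdhb9 and Pcdhac1 with Pcdhb7 were each seen in 12 neurons against 7.22. Pcdha12 with Pcdhac1 was seen in 22 against 14.1, Pcdhb9 with Pcdhga7 in 9 against 6.16 and Pcdha3 with Pcdhac1 in 18 against 13.8. Of these 6 pairs, 4 cross clusters and 2 lie within the alpha cluster, joining an alternate gene to Pcdhac1. These counts are small, and the pairs were picked as the ends of a ranking.

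**Figure D3:**
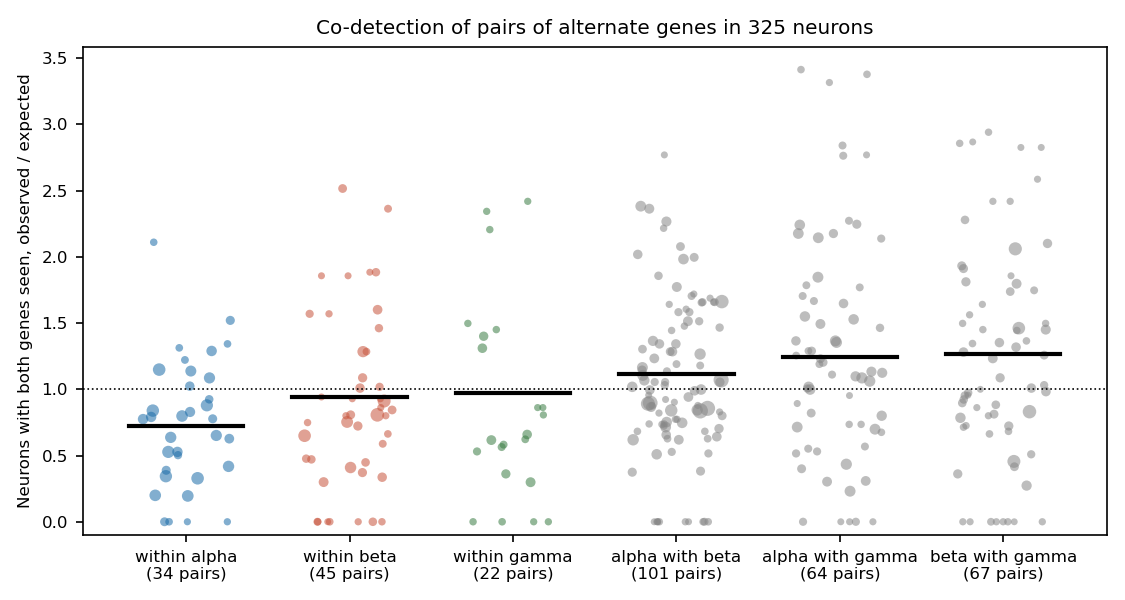
Observed over expected number of neurons with both genes seen, for pairs of alternate genes with at least 1 neuron expected. Each point is a pair, its area grows with the expected number, black lines are the ratios summed over all pairs of a kind, and the dotted line marks 1. The summed ratio is 0.720 within alpha and 1.12 to 1.26 between clusters.

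Neighbours in gene order differed between clusters. Adjacent alternate alpha genes were seen together in 10 neurons against 17.3 expected, and none of the 5 adjacent pairs with at least 1 neuron expected lay above 1. Adjacent beta genes were seen together in 24 neurons against 19.8 expected. When a beta gene was seen, the next gene downstream was above 0 in 42.7% of 337 cases, against 23.8% of cases in which the first gene was not seen. Taken gene by gene and weighted by the cases seen, a comparison added after seeing the data, the share where the first gene was not seen was 24.7%. By the weighted comparison, the next gene upstream was above 0 in 23.7% against 23.2%, the second gene downstream in 34.0% against 24.3% and the third in 26.6% against 24.6%. The next gene downstream was above 0 in 33.8% against 30.6% in the gamma cluster and in 27.6% against 23.5% in the alpha cluster.

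Variation from neuron to neuron is given by the coefficient of variation, which is lower for a sum of sparse genes than for its members by construction. Alternate genes with a mean of at least 1 ppm (32 of 53) had a median coefficient of variation of 2.59, against 0.981 for the 15249 genes of the table with such a mean, not matched on level. The total of the alternate alpha genes varied by 0.744, that of the beta genes by 0.806 and that of the alternate gamma genes by 0.824. The total of all 53 alternate genes varied by 0.585 and that of all 58 by 0.492. Pcdhac2 alone had a coefficient of variation of 0.672, Pcdhgc3 of 1.18, Pcdhac1 of 1.39 and Pcdhgc4 of 2.15. The totals moved together across the 325 neurons, with Spearman's rho of 0.244 for alpha with beta, 0.403 for alpha with gamma and 0.333 for beta with gamma, in neurons that share libraries and differ in the number of genes detected.

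The first comparison that the labels allow is by spinal segment. LS and TL neurons differed in the number of clustered protocadherins by less than plates did, 3.87 ± 1.75 (SD, n = 158) and 3.81 ± 2.15 (SD, n = 167). LS was higher in plates 5 and 6 and lower in plates 2 to 4. A member was called different where its means differed at least 2-fold, plates 2 to 6 all showed that direction, and either mean reached 1 ppm. By that rule 0 of the 39 members that could be called differed, against 7.98% of all 16184 genes (4.52% higher in LS and 3.47% higher in TL). The other 19 members had a mean under 1 ppm in both groups. Without the neurons of high glial sum 2 members passed, and without plate 5 also 2. The share of all genes was not computed under these alternatives, so nothing is read from these counts.

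The members with the widest gaps between segments missed the rule on size or on plates. Pcdha3 had a mean of 2.85 ppm in TL and 5.29 in LS and was seen in 15 and 29 neurons, and LS was higher in 3 of 5 plates. Pcdhb17 had means of 1.40 and 2.53, with LS higher in 5 of 5 plates but a ratio of 1.8. Pcdhac1 had means of 8.28 and 13.3, with LS higher in 5 of 5 plates and a ratio of 1.60, and was seen in 24.6% of TL and 38.6% of LS neurons. On the other side Pcdhb10 had means of 4.52 in TL and 1.97 in LS, Pcdhga1 of 2.26 and 1.08, and Pcdhb15 of 1.18 and 0.586. The ranges of all these genes began at 0 in both segments and overlapped throughout. Pcdhga1 turned to the other side, with a log2 ratio of 0.28 in place of -1.07, without the 169 neurons whose glial sum passed 1000 ppm. By cluster, 40.1% of TL neurons (32.6 to 48.0) and 25.9% of LS neurons (19.3 to 33.5) had no alternate alpha gene seen. The mean number of these genes was higher in LS in plates 3 to 6 and lower in plate 2. C-type genes numbered 1.09 ± 0.684 in TL and 1.30 ± 0.646 in LS (SD).

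The second comparison set apart 2 classes of neurons by receptor and channel genes. Gfra3, the co-receptor for artemin that marks peptidergic nociceptors, was at 10 or more ppm in 183 neurons, and Piezo2, a mechanically gated channel, in 145. Only Gfra3 passed in 158 neurons (82 TL, 76 LS) and only Piezo2 in 120 (55 TL, 65 LS), while 25 had both and 22 neither. The classes are cuts through measured levels, with 6 neurons between 5 and 20 ppm of Gfra3 and 27 of Piezo2. Both classes had about the same number of clustered protocadherins, 3.85 ± 1.95 in Gfra3-only and 3.95 ± 1.60 in Piezo2-only neurons (SD). Neurons with both genes had 5.08 ± 2.72 and those with neither 1.73 ± 1.16, and the latter had a median of 9459 genes above 0 against 13678.5 in Gfra3-only neurons.

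What made up the number differed between the classes. Alternate gamma genes numbered 0.804 ± 0.810 per Gfra3-only and 0.450 ± 0.606 per Piezo2-only neuron (SD), with the Gfra3-only mean higher in each of plates 2 to 6 and in both segments. None was seen in 40.5% of Gfra3-only and 60.0% of Piezo2-only neurons. C-type genes went the other way, with 1.05 ± 0.573 and 1.45 ± 0.684, and Piezo2-only neurons were higher in each of the 5 plates. Alternate alpha genes numbered 0.949 and 1.02, and beta genes 1.05 and 1.03. Of 12 alternate gamma genes with a mean of at least 1, 11 had a lower mean in Piezo2-only neurons, with a median log2 ratio of -0.46, against 0.01 over all genes. The gamma difference reversed when any value above 0 was counted, to 0.150 genes more in Piezo2-only neurons. The C-type difference reversed at 1 or more ppm, to 0.132 genes fewer in Piezo2-only neurons.

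By the rule for single genes, 7 of the 41 members that could be called differed between the classes, against 12.2% of 16336 genes. Of these, 4 were higher in Piezo2-only neurons (6.77% of all genes) and 3 in Gfra3-only neurons (5.41%). Nothing about the members as a group is read from this count. It fell to 4 without the neurons of high glial sum, to 3 without rescaling, and to 1 and 0 where the rule took differences of mean log2(level + 1) and log2(level + 10). Leaving out each plate in turn gave 5 to 10 members, with the direction then asked for in fewer plates. The share of all genes was not computed under these alternatives, so these counts have none to stand beside.

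Pcdhac1 had the largest ratio of means of the 41 members that could be called. Gfra3-only neurons ran from 0 to 32.2 ppm with a median of 2.39, and Piezo2-only neurons from 0 to 67.8 with a median of 13.7. Its mean was 4.39 times higher in Piezo2-only neurons (19.1 against 4.36), and it was seen in 68 of 120 (56.7%, 47.3 to 65.7) against 22 of 158 (13.9%, 8.94 to 20.3). The ranges overlap. The intervals of the shares do not, but they cover counting error only and count neurons as if independent, so they are no test of the classes. Plate means were 12.2 to 25.2 in Piezo2-only and 3.58 to 5.41 in Gfra3-only neurons, with no overlap. It kept its call under every alternative but the log2(level + 10) scale, where the difference was 0.85. The share was 41.8% against 9.76% within TL and 69.2% against 18.4% within LS. By Piezo2 level it was seen in 13.2% of neurons with Piezo2 at 0, 16.2% of those above 0 and under 10, 54.0% of those from 10 to 100 and 42.1% of the 19 at 100 or more. Neurons with both Gfra3 and Piezo2 lay between, at 32.0% of 25. Pcdhac1 also went with the number of genes above 0 (Spearman's rho 0.514, n = 325), which was 14173.5 in the median Piezo2-only and 13678.5 in the median Gfra3-only neuron.

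Pcdhac2, the neighbouring C-type gene, was seen about equally often in both classes, in 84.2% of Gfra3-only and 87.5% of Piezo2-only neurons. Its median level was 34.5 ppm (0 to 147) in the former and 51.9 (0 to 113) in the latter, and the ratio of means of 1.51 fell short of the rule. Pcdhgc3 and Pcdhgc4 were called lower in Piezo2-only neurons. Pcdhgc3 had medians of 2.55 and 1.03 and highest values of 16.0 and 11 ppm in Gfra3-only and Piezo2-only neurons, and its mean was 2.07 times higher in the former in 5 of 5 plates. Pcdhgc4 had means of 1.87 and 0.719 ppm, 2.60 times higher in Gfra3-only neurons, with 57 of 158 and 65 of 120 neurons at 0. Pcdhgc4 lost its call without neurons of high glial sum (log2 ratio -1.19) and without rescaling (-1.57). Within TL neither gamma C-type gene was called. Pcdhgc5 had means of 0.165 and 0.139 ppm, too low to be called.

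**Figure D4:**
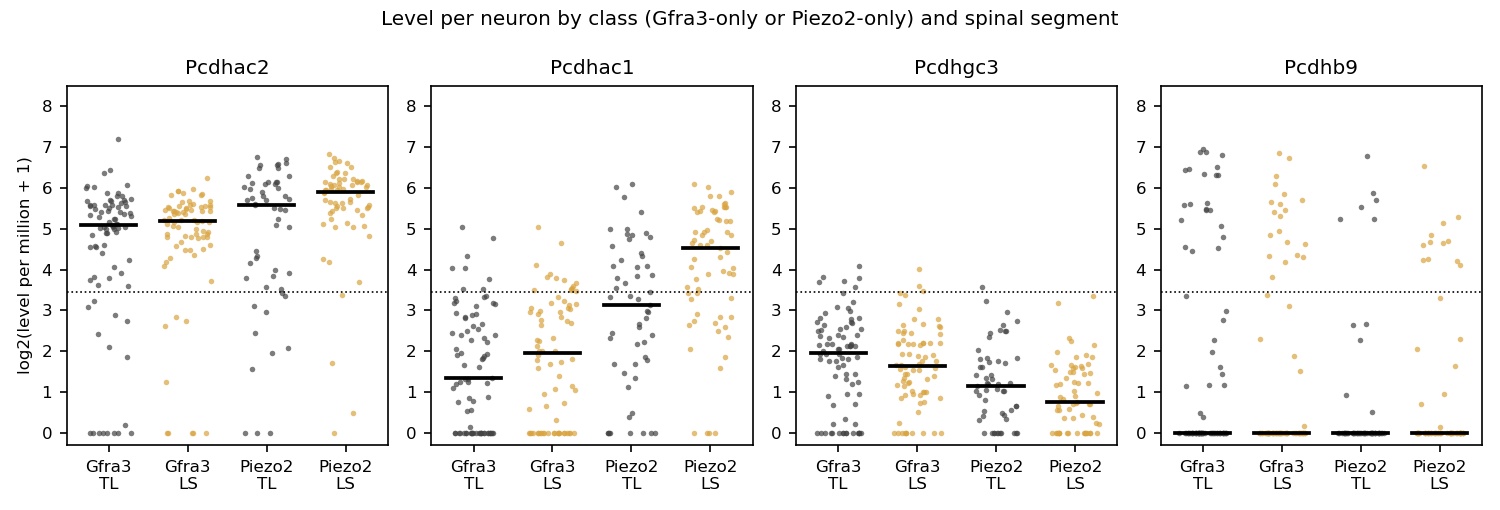
Level per neuron, log2(level in ppm + 1), of Pcdhac2, Pcdhac1, Pcdhgc3 and Pcdhb9 in Gfra3-only and Piezo2-only neurons of TL (dark) and LS (yellow). Points are neurons, black lines medians, and the dotted line is the threshold of 10 ppm. The median of Pcdhac1 is 2.39 in Gfra3-only and 13.7 ppm in Piezo2-only neurons, while most values of Pcdhb9 are 0 in every group.

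Of the beta genes, 4 passed the rule. Pcdhb9 was higher in Gfra3-only neurons, with a mean of 14.9 against 6.11 ppm, and was seen in 42 of 158 (26.6%, 19.9 to 34.2) against 18 of 120 (15.0%, 9.14 to 22.7). The intervals overlap, medians were 0 in both classes, and within TL the direction held in 4 of 5 plates. Pcdhb5 (means of 0.342 in Gfra3-only and 1.39 in Piezo2-only neurons), Pcdhb15 (0.538 and 1.15) and Pcdhb4 (0.943 and 1.91) were higher in Piezo2-only neurons. They were seen in 2, 1 and 5 Gfra3-only and in 4, 4 and 7 Piezo2-only neurons, so a handful of neurons decide these means. Without neurons of high glial sum, Pcdhb9 (log2 ratio -1.75), Pcdhb5 (1.93) and Pcdhb15 (1.64) lost their calls, though each ratio stayed past 2-fold. Without plate 4 the log2 ratios of Pcdhb9 and Pcdhgc3 came to -0.996 and -0.990, just short of 2-fold. Pcdhb4 lost its call without plate 2 (0.87) or plate 6 (0.82), and Pcdhb15 without plate 2 (0.66) or plate 4 (0.76). Without plate 6 the log2 ratio of Pcdhb15 rose to 2.40, and its call went because both means were then under 1 ppm. Of the members not called, Pcdhgb1 had means of 3.44 in Gfra3-only and 1.41 in Piezo2-only neurons, Pcdhgb2 of 1.70 and 0.719 and Pcdhb12 of 1.31 and 0.598, each lower in Piezo2-only neurons in 4 of 5 plates. Pcdhb21 (1.63 and 2.83), Pcdhb8 (0.827 and 1.26) and Pcdhb6 (1.06 and 1.61) were higher there by less than 2-fold.

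**Figure D5:**
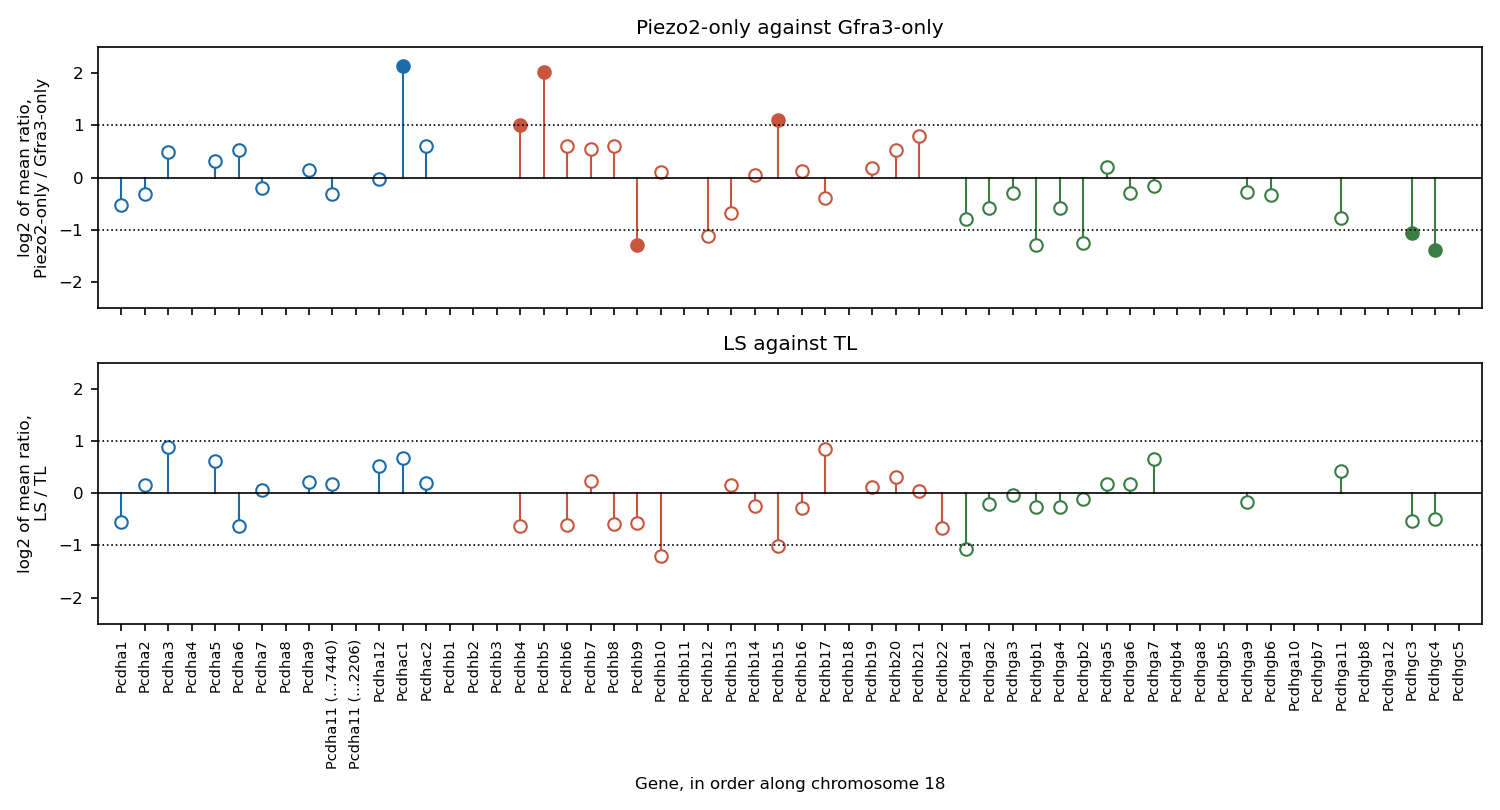
Log2 ratio of mean levels for Piezo2-only over Gfra3-only neurons (top) and LS over TL neurons (bottom), for members with a mean of at least 1 ppm in either group, in genomic order. Filled points passed the 2-fold rule in the same direction in plates 2 to 6, and dotted lines mark a 2-fold difference. At the top 7 points are filled, led by Pcdhac1 at 2.13, and 0 at the bottom.

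Within a segment fewer members passed. Of 41 members, 3 did within TL (Pcdhac1, Pcdhb4 and Pcdhb5, all higher in Piezo2-only neurons, against 12% of all genes, 5.55% higher and 6.42% lower there) and of 40 members, 3 did within LS (Pcdhac1 higher, Pcdhb9 and Pcdhgc3 lower, against 11.2% of all genes, 6.53% higher and 4.68% lower). Pcdhac1 was the 1 member called in both. Between segments within a class, Pcdhb17 was called among Gfra3-only neurons (means of 1.32 in TL and 2.90 in LS, 1 of 41 members against 6.26% of all genes, 3.53% higher in LS and 2.73% higher in TL). Pcdhb16 was called among Piezo2-only neurons (3.98 in TL and 1.65 in LS, 1 of 37 against 9.69%, 6.5% higher in LS and 3.19% higher in TL). Pcdhac1 was higher in LS among Piezo2-only neurons, 24.1 against 13.2 ppm, in 4 of 5 plates and so was not called.

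Genes around the clusters were compared in the same way. The non-clustered delta protocadherins are single genes outside the clusters that serve in adhesion and migration. Of 11, 7 could be called, and the counts here stand beside 7.98% of all genes called between segments and 12.2% between classes. Between segments, Pcdh17 (13.7 ppm in TL, 32.6 in LS) and Pcdh11x (0.0975 and 2.18) were called higher in LS, and Pcdh7 (2.89 and 0.797) lower. Between classes, Pcdh11x (0.193 in Gfra3-only, 2.64 in Piezo2-only) and Pcdh18 (0.341 and 1.51) were called higher in Piezo2-only neurons. Within TL, Pcdh11x was at 0.0635 and 0.0576, and within LS at 0.334 and 4.83. Pcdh9, the most abundant, had means of 21.3 and 31.9 and did not pass. Of 19 regulators of the clusters, such as Ctcf and cohesin subunits that loop promoters to enhancers, 18 could be called and 0 passed in either comparison. Smc1a and Mau2 were the most abundant of them, at 30.1 and 25.8 ppm. Of 16 signalling partners and proteases, 1 passed in each comparison: Ptk2b, a focal adhesion kinase inhibited by clustered protocadherins, at 5.07 in TL and 1.40 in LS, and Cyfip2, a subunit of the WAVE actin complex, at 352 in Gfra3-only and 174 in Piezo2-only neurons. Rac1, which acts on that complex, was at 146 in TL and 189 in LS and did not pass.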

How the data were processed

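Dorsal root ganglion neurons were sequenced by Smart-seq2. According to the submitters' processing notes, STAR 2.4.1, featureCounts 1.4.4, bcl2fastq 2.15.0.4 and GRCm38.p3 were used. How reads in exons shared by several genes, or mapping to several places, were assigned is not given in the sources used here. The authors deposited log2 values, with 1 added, of 325 neurons that passed their filter, 74 fewer than the labels list. Those 74 neurons and 13 bath controls were not analysed here, and 0 columns of the table were left out. The paper set aside further cells with satellite glia genes before its clustering, and these were kept here.

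Each deposited value, taken off the log2 scale, was proportional to a whole read number, scaled by neuron and divided by exonic gene length. With GENCODE M21 lengths, 65.0% of values above 0 were whole within a relative tolerance of 1e-06, and all 58 members were among them. Other lengths were found from the values. Of 45513 identifiers, 44585 had a symbol. Levels were rescaled to a sum of 1000000 per neuron. A gene was seen at 10 or more. The members and lists were chosen with earlier results of these data known.

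Neurons of 1 segment are not replicates and the analysis was laid out without a test. A gene was called at a mean of at least 1 in either group, a ratio of at least 2 with that direction held in every plate from 2 to 6. Plate 1 held 5 TL neurons and was not used for direction. Shares carry exact Clopper-Pearson 95% intervals, and a count of 0 was taken to allow 3 counts. Named members were the C-type genes, the 3 alternate genes of each cluster seen most and the 2 seen least (with ties), members called and the 3 with the largest ratio in each direction among those not called, the 6 highest and 4 lowest pairs, and called or most abundant genes of the other lists. Further members were named after their values were seen. Alternatives were other thresholds and scales, levels without neurons with few genes or high glial sums, and each plate left out. Another was 500000 reads per neuron, with a gene seen at 5 or more reads. Levels per length of unshared exon were added after seeing the data. Scripts ran in Python 3.11.15 with numpy 2.4.6 and scipy 1.17.1, and were tested on simulated data.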

Additional observations from a re-analysis of the deposited data

How the results depend on the processing

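No paired analysis was possible because the labels give each neuron a number of its own and no result comes from a test. Plates 2 to 6, which hold both segments, served as strata. Of 377 values of 25 results under an alternative, 274 moved by less than the spread set for their result and 103 by more. That spread was the one between plates for part of the results only. The numbers of members called, for example, have no value per plate. The 274 values are therefore not all measured against plates.

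Threshold. The mean number seen was 16.9 at any value above 0, 12.1 at 1 and 0.462 at 50 or more, the share with none 0, 0.308 and 60.9%, the median share per alternate gene 25.5, 18.5 and 0% and per C-type gene 77.8, 62.2 and 0%. LS minus TL was 0.683 and 0.798 genes at the lower 2 thresholds. Piezo2-only minus Gfra3-only was 2.58, 1.14 and 0.315 for all members and 0.150, -0.152 and -0.0190 for alternate gamma genes, and for C-type genes 0.0235 and -0.132 at the lower 2. The alpha variance ratio was 1.37 above 0 and 0.986 at 50, and the share of gamma cases in the first 10 genes 57.0, 65.0 and 100%. Co-detection within clusters was 1.25, 1.15 and 0 (median 1.24 above 0), within alpha 1.10, 0.899 and 0, and between clusters 2.02 at 50. Jaccard indices were 0.155, 0.107 and 0.0203 within segments, 0.156, 0.108 and 0.0174 between them, 0.167, 0.115 and 0.0263 within classes and 0.166, 0.114 and 0.0159 between them.

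Scale. Rescaled without mitochondrial genes and the gene with the highest mean, the number was 4.51, the alternate share 4.62% and the gamma difference -0.484. With 500000 reads drawn per neuron (2 shallower neurons left out), a gene was counted as seen at 5 or more reads, not by its level. Depth and the definition of seen thus changed together, and their parts were not separated. The values in the order above were 5.97, 2.17%, 7.12%, 16.7%, 0.302, gamma -0.465, C-type 0.204, alpha variance 0.599, gamma share 80.9%, and Jaccard 0.0627 between segments and 0.0649 between classes. Per length of unshared exon, chosen after seeing the data, they were 5.93, 1.85%, 7.08%, 29.8%, a class difference of -0.283, gamma -0.498, C-type 0.0828, alpha variance 0.549, gamma share 79.2%, co-detection between clusters 1.11, Jaccard 0.0676 between segments, 0.0721 within and 0.0706 between classes, and an alpha coefficient of variation of 0.672. Without rescaling, the C-type share was 7.38%, the class difference -0.316, the alpha variance 0.915, the gamma share 83.3%, co-detection 1.38 within clusters, 1.64 between (median 1.47) and 0.892 within alpha, and the coefficients of variation 1.44 for alpha, 1.34 for beta and 1.62 for gamma.

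Neurons left out. In the 286 neurons with at least 9000 genes, 2.45% had no member and the alpha coefficient of variation was 0.661. In the 156 neurons with a glial sum up to 1000, LS minus TL was -0.326, the class difference -0.197, the C-type difference 0.206, the alpha variance 0.567 and co-detection within alpha 0.607. Members called were 2 between segments and 4 between classes there, 1 and 3 without rescaling, 3 between segments with no condition on plates and 2 at a fold of 1.5, and 1 and 0 between classes on log2(level + 1) and log2(level + 10). Leaving out each plate gave 0 to 2 members between segments, with 1 without plate 4 and 2 without plate 5, and 5 to 10 between classes. For none of these counts was the share of all genes computed. The log2 ratio turned to 0.28 for Pcdhga1 between segments without neurons of high glial sum. Between classes it turned to -0.15 for Pcdhb21 without rescaling and, for Pcdhb8, to -0.30 without neurons of high glial sum and -0.10 without plate 5 (up to 1.40 without plate 6). Of 323 values for 19 named ratios, 273 kept their call. The causes were not tested.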
